A study of Mus musculus with 13 samples.

Results

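Gene expression in whole brain tissue was compared between floxed control mice and mice whose brain endothelium has lost Pdcd10, the gene also known as Ccm3, all kept for 7 days at 12% oxygen. The libraries were taken by their titles: 4 knockout (KO) and 3 control (flox) libraries in hypoxia, 7 of the 13 in the series. The other 6, 3 KO and 3 flox, came from mice kept at 21% oxygen. Every animal, controls included, carried loxP-flanked Pdcd10 (Pdcd10fl/fl). KO mice also carried Slco1c1-iCreERT2, a Cre recombinase that needs tamoxifen and is driven by the promoter of Slco1c1, a thyroid hormone transporter gene of brain endothelium. They received 50 µg of 4-hydroxytamoxifen into the stomach on postnatal day 1. Flox mice were littermates without Cre. The design text also names Cre carriers that were not injected as controls, and it does not make clear whether flox mice were injected. Loss of Pdcd10, the transgene and possibly the injection therefore cannot be told apart. The age at harvest is not given in the sources used here.

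PDCD10 works with KRIT1 and CCM2 in an adaptor complex that holds back the MEKK3 kinase, and with it the transcription factors KLF2 and KLF4, in endothelial cells. Its loss in brain endothelium leads to cerebral cavernous malformations, clusters of enlarged, thin-walled capillaries that leak and bleed. Astrocytes wrap these vessels with their endfeet, and microglia and border macrophages survey them, so a change in the vessel wall can be met by cells that keep their own Pdcd10. In low oxygen, brain capillaries remodel under VEGF and the hypoxia-inducible factors.

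The 7 libraries held between 42090437 and 67813639 counts, and levels are given as CPM, counts scaled to the size of each library. A gene with no read could still have stood at 3 counts, which is 0.0442 CPM in the deepest library and 0.0713 CPM in the shallowest, counting error alone considered. Neuronal, astrocytic, oligodendrocyte, microglial, endothelial and pericyte markers were read in every library. Tissue was not sorted, so more cells of a type and more RNA per cell cannot be told apart, and neither can fewer cells and less RNA per cell. KO replicate 1 stood apart. Hemoglobin transcripts made up 1.72% of its counts, against 0.348%, 0.419% and 0.345% in KO replicates 2 to 4 and 0.0439%, 0.0470% and 0.0660% in the flox libraries. The means were 0.707% ± 0.674 in KO and 0.0523% ± 0.0119 in flox (SD, n = 4 and 3; exact permutation p, both sides, = 0.0571, the smallest that 4 against 3 allow). Without KO replicate 1 the KO mean was 0.371% ± 0.0415, and the groups still did not overlap (exact p = 0.1, the smallest that 3 against 3 allow). Its counts also differed from those of the other KO libraries by a chi-square per degree of freedom of 42.3 to 48.0, against 10.5 to 16.3 among those 3 and 4.44 to 9.07 among the flox libraries. Each library is labelled male, yet KO replicates 3 and 4 held Xist at 688 and 564 CPM. Counts of called genes in each gene list are therefore given with and without KO replicate 1. For single genes the value without it is given for those the results turn on and for many that lost the call or moved by over 1.5 times. A gene printed with 1 value may have moved as well.

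Many brain cell types that do not recombine express Pdcd10, so a bulk level is no check of genotype. Pdcd10 stood at 17.5, 17.6 and 17.2 CPM in flox and at 16.8, 16.9, 14.7 and 17.0 CPM in KO libraries. The KO values all lay below the flox values, as in 9.37% of all genes, but the gene was not called (log2 fold change -0.09 ± 0.07, SE; edgeR adjusted p = 0.47). Of its partners, Krit1 (-0.09) and Ccm2 (-0.09) were not called, while Heg1, the transmembrane receptor that anchors the complex at junctions, rose from 36.7 to 74.6 CPM on average (1.03 ± 0.12), and Ccm2l, an endothelial paralogue of Ccm2, rose by 1.24 ± 0.15. Strn, a scaffold of the STRIPAK complex that also holds PDCD10, fell by 0.19 ± 0.05. In all, 6 of 22 genes of the complex and its partners rose and 1 fell, and 5 and 1 of these stood without KO replicate 1. The fall of Strn was not called when only libraries free of Xist were used, which are the 3 flox libraries and KO replicates 1 and 2. Far apart between the groups was Bst1, which encodes an ADP-ribosyl cyclase of the cell surface. Its reads numbered 9, 3 and 3 in the flox libraries and 804, 315, 396 and 298 in the KO libraries (log2 fold change 6.19 ± 0.44, and 5.79 without KO replicate 1). Gm6614, a predicted gene that lies among the Slco1 transporter genes, had 2, 1 and 2 reads in flox and 485, 196, 409 and 144 in KO (7.12 ± 0.53). Both were chosen after their values were seen, and the part of the Cre transgene in either was not tested. Slco1c1 itself was not called (-0.28 ± 0.27, edgeR adjusted p = 0.594).

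Of 22507 genes tested by edgeR's quasi-likelihood method, 1526 were higher in KO (6.78%) and 513 were lower (2.28%) at an adjusted p under 0.05. Rises were the larger changes: 568 genes rose by at least 1 on the log2 scale, and 19 fell by as much. The median log2 fold change was 0.78 among the higher genes and -0.203 among the lower ones, beside -0.009 over all genes. Scaling without a composition factor gave 1746 higher and 243 lower, so that 87.8% of the calls were rises, against 74.8% with TMM. The KO libraries all lay above the flox libraries in 2583 genes (11.5%) and all below in 2110 (9.37%). The counts per gene list and the lack of overlap given further on are to be read beside these shares of all genes.

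Without KO replicate 1, 1170 genes were higher (5.25%) and 284 lower (1.27%) of 22278 tested. Of the 1526 higher genes 1145 were called again, and of the 513 lower genes 250. No called gene changed direction, although 17 of the higher ones fell below the count filter and were not tested. A further 25 higher and 34 lower genes passed only without that library. KO replicate 1 held the highest of the 4 KO values in 1124 of the 1526 higher genes. These were 836 of the 1145 called again and 288 of the 381 not called again. The share over all genes is not given, and that library's values also entered the calls. The median of the higher genes was 0.669 without KO replicate 1. Leaving out other libraries also moved the counts: without flox replicate 2 there were 1151 calls (998 higher, 153 lower), without flox replicate 1 there were 1254, and without KO replicate 2 there were 2490. With that library most rises were thus larger, while 75.0% of the higher calls and 48.7% of the lower calls stood without it.

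**Figure D1:**
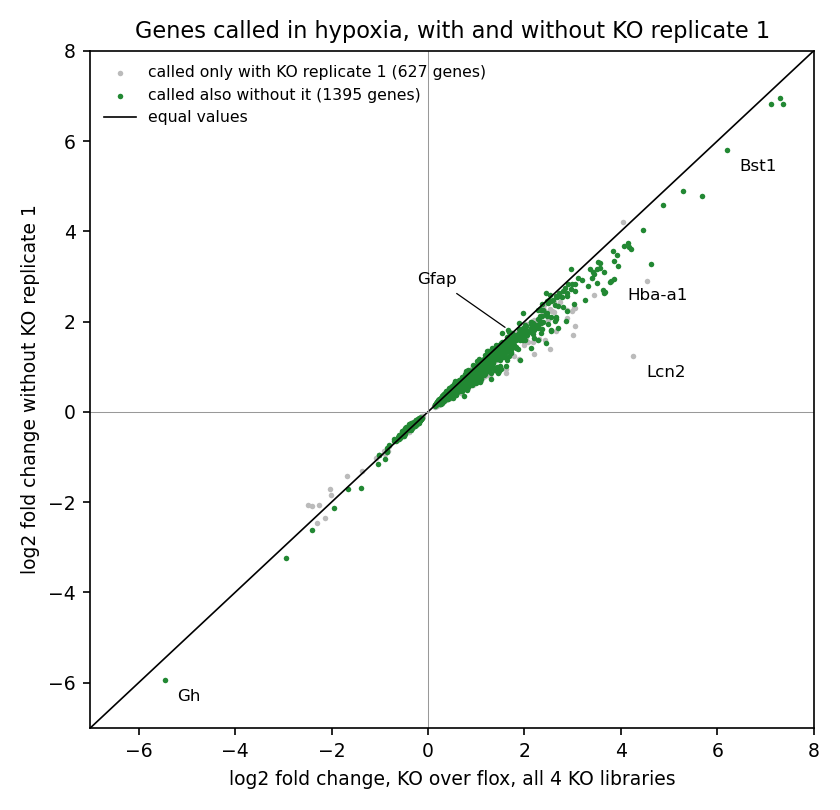
Log2 fold change of KO over flox in hypoxia with all 4 KO libraries (horizontal axis) and without KO replicate 1 (vertical axis), 1 point per called gene, for the 2022 called genes tested in both fits. Green points (1395 genes) were called in both, grey points (627 genes) only with KO replicate 1; most rises lie below the line of equal values, Hba-a1 and Lcn2 far below it and Gfap above it.

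Transcripts of endothelial cells rose as a group. All 24 pan-endothelial markers passed the test, with a median log2 fold change of 1.07, and 23 passed without KO replicate 1 (median 0.95). The one that did not, named for that reason, was Sox17, a transcription factor of arterial endothelium. Cldn5, the main claudin of the blood-brain barrier, was read at 27.3, 26.3 and 29.1 CPM in flox and at 88.2, 56.0, 68.8 and 63.7 CPM in KO libraries. Robo4, a guidance receptor of quiescent endothelium, had a mean of 9.64 ± 1.15 CPM in flox and of 26.5 ± 4.81 CPM in KO (SD, n = 3 and 4), with KO libraries between 22.6 and 33.4 CPM. In both genes every KO library lay above every flox library, with KO replicate 1 highest. The log2 fold changes were 1.33 ± 0.13 for Cldn5 and 1.46 ± 0.12 for Robo4, and 1.19 and 1.32 without KO replicate 1. The adhesion molecules Pecam1 (1.47 ± 0.14), Esam (1.03 ± 0.10) and Icam2 (1.89 ± 0.20) rose too. KO replicate 1 was the highest KO library for 23 of the 24 markers, beside 1124 of all 1526 higher genes.

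The barrier and its transport routes did not rise evenly. Of 20 blood-brain barrier transporters 11 rose, with a median of 0.366, and all 11 stood without KO replicate 1. Slc2a1, the glucose transporter GLUT1, went from 107, 96.1 and 111 CPM in flox to 288, 196, 190 and 199 CPM in KO (1.06 ± 0.14). The efflux pumps Abcb1a (0.79 ± 0.10) and Abcg2 (0.64 ± 0.08) and the amino acid transporter Slc38a5 (0.86 ± 0.10) rose by less than the median pan-endothelial marker. Of 18 junction genes 11 rose (median 0.361), 10 of them without KO replicate 1, and Cdh5, which encodes VE-cadherin, rose by 1.30 ± 0.14. Its intracellular partner Ctnnb1, which many cell types express, was at 0.13 ± 0.04 and not called (edgeR adjusted p = 0.0515). Caveolae are the vesicles that carry cargo across endothelium, and 8 of 13 caveolar and transcytosis genes rose (median 0.634), all of them also without KO replicate 1. The caveolar coat genes Cav1 (1.31 ± 0.13), Cavin1 (1.31 ± 0.15) and Cavin2 (0.99 ± 0.13) and the caveolar neck gene Ehd2 (1.51 ± 0.16) rose further than the smaller change of Cav2 (0.43 ± 0.05). Cav1 was at 14.3, 12.3 and 13.1 CPM in flox and at 42.3, 29.2, 32.7 and 27.4 CPM in KO.

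Genes of the shear-stress and KLF programme were higher. Klf4 was read at 11.4, 8.14 and 11.3 CPM in flox and at 46.5, 24.3, 30.3 and 27.2 CPM in KO, and Klf2 at 25.6, 20.9 and 21.3 against 60.7, 34.2, 48.7 and 49.7 CPM. Every KO library exceeded every flox library in both. Their log2 fold changes were 1.65 ± 0.24 and 1.10 ± 0.22, and 1.41 and 0.97 without KO replicate 1 (edgeR adjusted p = 0.000248 and 0.0127). Thbd, the thrombin-binding anticoagulant receptor thrombomodulin, rose by 1.68 ± 0.16, and Nos3, the endothelial nitric oxide synthase, by 1.51 ± 0.12. The venous receptor Ephb4 (1.00 ± 0.11) and the receptor Notch4 (0.98 ± 0.13) rose, while the arterial genes Efnb2 (-0.10) and Hey1 (0.07) were not called. Of 21 arterial, venous and shear-responsive genes 12 rose, 10 of them also without KO replicate 1.

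Among 24 angiogenic ligands, receptors and tip cell genes 14 rose and none passed as lower (median 0.727), and the same 14 passed without KO replicate 1. Of the ligands, Angpt2, which loosens vessels, went from 3.53, 2.49 and 2.89 CPM to 11.7, 7.14, 8.26 and 7.82 CPM (1.55 ± 0.19). Apln, the ligand apelin of tip cells, rose by 1.17 ± 0.14. Vegfa, the main hypoxic growth factor of vessels, rose by the smaller 0.47 ± 0.10, from 109, 90.4 and 105 CPM to 161, 133, 137 and 130 CPM. Of the receptors, Tek, which binds angiopoietins, rose by 1.03 ± 0.11, and Flt4, the receptor of VEGF-C, by 1.51 ± 0.17. The axon guidance receptors Nrp2 (0.11) and Plxnd1 (-0.09), which neurons also express, were not called. Of 28 Wnt genes 5 rose and 1 fell, beside 6.78% and 2.28% of all genes. Only 3 of the rises stood without KO replicate 1, beside 5.25% of all genes higher in that fit. They included Adgra2 (0.73 ± 0.09), the co-receptor of Wnt7 signals at the barrier, and Lrp5 (0.57 ± 0.10). The fall was that of Fzd2, a Wnt receptor, from 15.4, 13.2 and 12.9 CPM to 8.23, 7.98, 7.23 and 7.51 CPM (-0.84 ± 0.09). It was among the largest falls of any gene at this level of expression and was slightly larger without KO replicate 1 (-0.87).

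Mural cells, fibroblasts and matrix moved with the endothelium. Of 20 pericyte and smooth muscle markers 11 rose (median 0.707), all also without KO replicate 1 (0.535), among them Rgs5 of pericytes (0.79 ± 0.09), Vtn (1.08 ± 0.10), Anpep (1.16 ± 0.16) and the contractile actin Acta2 (1.24 ± 0.19). The pericyte proteoglycan Cspg4, also made by oligodendrocyte precursors, was not called (0.08). Of 18 fibroblast genes 10 rose, again all 10 without KO replicate 1. Col3a1, a fibrillar collagen chain, was read at 3.38, 3.92 and 4.47 CPM in flox and at 29.0, 13.3, 21.5 and 16.1 CPM in KO (2.36 ± 0.24, and 2.12 without KO replicate 1). Col1a1 rose by 1.61 ± 0.25 and Mgp, the matrix Gla protein, by 1.32 ± 0.22.

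Of 20 basement membrane genes 15 rose (median 0.734), 14 of them without KO replicate 1. Fn1, which encodes fibronectin, stood at 83.3, 77.4 and 86.2 CPM in flox and at 489, 274, 311 and 249 CPM in KO libraries. The KO values were all well clear of the flox values, with replicate 1 highest (2.01 ± 0.17, and 1.76 without it). The laminin chain Lama5 (1.35 ± 0.12), the linker Nid1 (1.35 ± 0.17) and Col18a1, the source of endostatin (1.65 ± 0.20), rose too, while Agrn (-0.06) was not called. The collagen cross-linking enzymes Lox (2.65 ± 0.45) and Loxl2 (2.20 ± 0.34) came from low levels, 0.444, 0.707 and 0.287 CPM in flox for Lox against 5.95, 1.33, 2.99 and 1.86 CPM in KO. In the coagulation list 10 of 18 rose, 9 without KO replicate 1, which moved its median from 1.36 to 0.939. F5, clotting factor V, rose by 1.79 ± 0.21, Anxa2, a plasmin-generating surface protein, by 2.05 ± 0.20, and Vwf, the platelet-binding von Willebrand factor, by 2.01 ± 0.29. The tissue factor gene F3, which astrocytes express, was not called (-0.05).

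**Figure D2:**
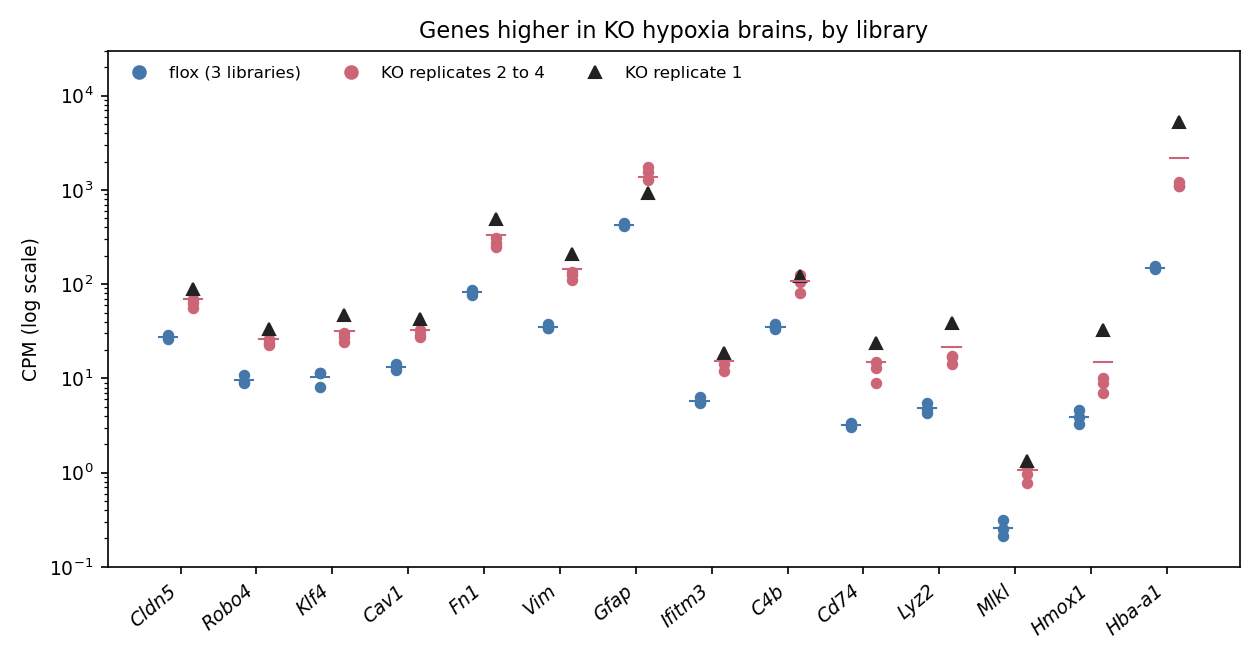
CPM on a log scale for 14 genes higher in KO brains in hypoxia; each circle is a library (blue flox, red KO replicates 2 to 4), triangles are KO replicate 1 and short lines are group means. In each gene all KO libraries lie above all flox libraries, and KO replicate 1 is highest in most, at 5305 CPM for Hba-a1, but lowest of the KO libraries for Gfap (918 CPM).

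Many genes of reactive astrocytes rose. Of 30 reactive astrocyte genes 21 rose, 18 of them without KO replicate 1, and the median was 1.03 with that library and 0.831 without. Gfap, the intermediate filament of reactive astrocytes, was read at 423, 416 and 449 CPM in flox and at 918, 1272, 1543 and 1732 CPM in KO. KO replicate 1, the highest KO library in 1124 of the 1526 higher genes, was the lowest KO library here, so the log2 fold change grew from 1.67 ± 0.15 to 1.82 without it. Vim, another filament gene that endothelial cells also express, went from 34.1, 34.4 and 37.9 CPM to 211, 112, 126 and 134 CPM (2.04 ± 0.16). Emp1 (2.55 ± 0.29) and Osmr, the oncostatin M receptor (1.37 ± 0.12), rose, as did Stat3, the transcription factor downstream of that receptor (0.46 ± 0.06). Serpina3n was at 17.4, 17.1 and 18.7 CPM in flox and at 49.0, 22.6, 29.7 and 38.1 CPM in KO, which did not pass (0.98 ± 0.35, edgeR adjusted p = 0.104).

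Of 20 homeostatic astrocyte genes 6 rose and 2 fell, and all 8 were called without KO replicate 1. S100b (0.64 ± 0.09), the endfoot water channel Aqp4 (0.52 ± 0.09), the glutamate transporter Slc1a3 (0.35 ± 0.05) and the lipid enzyme Acsbg1 (0.31 ± 0.05) rose. Slc1a2, the main glutamate transporter GLT-1, went the other way, from 3322, 3308 and 3328 CPM in flox to 2587, 2900, 2990 and 2821 CPM in KO (-0.23 ± 0.04). Gpc5, a glypican of mature astrocytes, fell from 26.7, 27.8 and 25.3 CPM to 17.6, 20.2, 18.7 and 21.0 CPM (-0.46 ± 0.06). Thus the glutamate transporter genes changed in opposite directions, with no overlap between the groups in either. Glul (0.09), the glutamine synthetase gene, was not called.

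Most markers of resting microglia were higher in KO. Of 21 homeostatic microglia genes 19 rose, with a median of 0.533, and 14 stood without KO replicate 1 (median 0.433). Csf1r, the growth factor receptor of these cells, went from 91.3, 95.8 and 92.0 CPM to 154, 116, 125 and 124 CPM (0.48 ± 0.07). The complement component C1qa rose by 0.90 ± 0.13, while P2ry12, the purine receptor of resting microglia, overlapped between the groups and was not called (0.15 ± 0.06). Of 25 disease-associated microglia genes 15 rose, 13 without KO replicate 1. Lyz2, a lysozyme of myeloid cells, was at 4.32, 5.44 and 4.68 CPM in flox and at 38.9, 14.2, 16.8 and 17.1 CPM in KO (2.18 ± 0.28, and 1.74 without KO replicate 1). Apoe, which astrocytes also make, was not called (0.03).

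Of 15 border macrophage genes 8 rose, 5 of them without KO replicate 1, and the median was 1.10. Mrc1, the mannose receptor, rose by 1.20 ± 0.18 and the sialic acid receptor Siglec1 by 2.23 ± 0.36, from 0.444, 0.364 and 0.334 CPM to 2.82, 1.21, 1.64 and 1.52 CPM. Summed over each list, markers of blood leukocytes were low in flox. Of 14 neutrophil and monocyte genes 8 rose, 5 without KO replicate 1, and of 14 lymphocyte genes 5 rose and only Igkc and Ptprc stood without it. The summed level of the neutrophil and monocyte list was 18.0 to 21.5 CPM in flox, 27.5 to 34.3 CPM in KO replicates 2 to 4 and 63.1 CPM in KO replicate 1. Igkc, an immunoglobulin light chain, was at 0.598, 0.557 and 0.311 CPM in flox and at 6.21, 1.80, 2.22 and 3.52 CPM in KO. The part of blood cells in these rises was not tested.

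Interferon-stimulated genes, whose products restrict viruses and load antigen, were higher in KO. Of 35 tested 29 rose, with a median of 0.94, and 23 stood without KO replicate 1 (0.815). Ifitm3, a membrane protein that blocks virus entry and is abundant in endothelium, was read at 6.29, 5.59 and 5.42 CPM in flox and at 18.7, 11.9, 16.3 and 14.0 CPM in KO (1.40 ± 0.13). The guanylate-binding genes Gbp2 and Gbp3 did not stand apart in KO replicate 1. Gbp2 was at 2.55, 2.61 and 2.89 CPM against 7.18, 6.45, 6.15 and 6.79 CPM (1.31 ± 0.18). Gbp3 was at 4.34, 3.39 and 4.18 CPM against 8.79, 8.33, 9.64 and 7.89 CPM (1.13 ± 0.14). Without that library their log2 fold changes were 1.27 and 1.12. The transcription factor genes Stat2 (0.06) and Irf9 (0.31), which convey the interferon signal, were not called.

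The response element of interferon-stimulated genes holds the letters GAAANNGAAA. The promoter windows of 3 list members with several or single matches are shown because these genes rose together and stood without KO replicate 1. They run from 250 bases before to 50 after an annotated start of the gene, 5′ to 3′ on the gene's strand. RefSeq gives them for GRCm38.p6, a build other than the authors'. Gbp3 has 2 windows, and the first with a match is shown. Capitals mark each match on either strand; overlapping matches run together.
Ifitm3 (chr7:141010695-141010994, minus strand): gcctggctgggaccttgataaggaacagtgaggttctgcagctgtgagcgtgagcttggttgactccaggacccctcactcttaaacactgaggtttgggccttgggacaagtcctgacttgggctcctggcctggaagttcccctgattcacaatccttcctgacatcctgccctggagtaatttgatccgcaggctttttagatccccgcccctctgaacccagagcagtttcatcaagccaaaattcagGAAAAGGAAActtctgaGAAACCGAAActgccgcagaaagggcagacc
Gbp2 (chr3:142620413-142620712, plus strand): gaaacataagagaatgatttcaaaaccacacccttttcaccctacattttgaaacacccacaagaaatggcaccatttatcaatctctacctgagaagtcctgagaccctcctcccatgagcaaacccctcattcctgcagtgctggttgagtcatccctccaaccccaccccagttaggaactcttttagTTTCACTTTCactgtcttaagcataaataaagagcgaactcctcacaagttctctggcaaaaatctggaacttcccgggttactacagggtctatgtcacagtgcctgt
Gbp3 (chr3:142559794-142560093, plus strand): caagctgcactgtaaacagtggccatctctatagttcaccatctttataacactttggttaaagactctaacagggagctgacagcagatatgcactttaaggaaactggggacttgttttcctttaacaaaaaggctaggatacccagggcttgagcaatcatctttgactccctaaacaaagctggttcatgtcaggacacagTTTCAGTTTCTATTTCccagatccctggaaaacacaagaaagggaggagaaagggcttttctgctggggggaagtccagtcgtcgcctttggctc
Of 27025 genes with such a window 3.99% held a match on either strand, where a match in any window of a gene counted. Among the 13753 tested genes with a window the share was 3.77%. Among the 1115 genes called higher that had a window it was 8.07%, and these include the interferon list members called higher. In the interferon list 27 tested members had a window and 17 held a match, 16 of them among the 24 that rose and had a window. A match is a stretch of letters only, and binding was not measured.

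Antigen presentation genes followed. Of 19 class I genes 13 rose (median 0.797), 11 without KO replicate 1, and of 9 class II genes 6 rose, 5 without it. H2-K1, a class I heavy chain, was at 16.2, 15.7 and 19.7 CPM in flox and at 50.4, 33.0, 43.6 and 47.4 CPM in KO (1.34 ± 0.17). B2m, its shared light chain, rose by 0.84 ± 0.10, the peptide pump Tap1 by 1.23 ± 0.19 and Nlrc5, the activator of class I transcription, by 1.89 ± 0.32. Class I heavy chain genes are close copies, and how shared reads were counted is not given in the sources used here, so single members are uncertain. Cd74, the invariant chain of class II, was at 3.03, 3.22 and 3.37 CPM in flox and between 8.88 and 23.5 CPM in KO (2.23 ± 0.27). H2-Ab1, a class II chain, was at 1.54, 1.39 and 0.669 CPM in flox and at 11.1, 4.70, 5.72 and 5.42 CPM in KO (2.47 ± 0.33). Ciita, the activator of class II transcription, was not called (0.16).

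Many complement genes and some genes of innate signalling and cell death were higher. Of 17 complement genes 12 rose, 9 without KO replicate 1. C4b, a complement component that reactive astrocytes make, was at 33.3, 34.0 and 37.7 CPM in flox and at 123, 81.6, 106 and 125 CPM in KO (1.64 ± 0.15, and 1.57 without KO replicate 1). The regulators Serping1 (1.41 ± 0.21) and Cd55 (1.20 ± 0.18) rose too. The exception was Masp1, a protease of the lectin pathway, which fell by 0.27 and is named here after its value was seen. Its fall was not called with only the libraries free of Xist. Of 24 Toll-like receptor and NF-kappaB genes 12 rose, 9 without KO replicate 1. They included the receptors Tlr2 (1.73 ± 0.28) and Tlr4 (1.34 ± 0.24), its co-receptor Cd14 (1.17 ± 0.22) and the kinase Irak4 (0.80 ± 0.13), whereas Nfkb1 (0.19) and Traf6 (-0.02) were not called. Tlr4 was at 1.02, 1.33 and 1.46 CPM in flox and at 4.81, 2.94, 2.98 and 2.02 CPM in KO.

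Of 25 chemokine and cytokine genes 12 rose, 9 without KO replicate 1. Cxcl10, which draws T cells, went from 0.405, 0.0857 and 0.191 CPM to 1.80, 1.15, 1.80 and 1.39 CPM (2.72 ± 0.44), and the tumour necrosis factor receptors Tnfrsf1a (1.13 ± 0.13) and Tnfrsf1b (1.03 ± 0.17) rose. Cx3cl1, the neuronal chemokine fractalkine, was at 841, 819 and 825 CPM in flox and at 644, 766, 811 and 737 CPM in KO, which did not pass (-0.16 ± 0.06, edgeR adjusted p = 0.136). The leukocyte adhesion molecules Icam1 (1.64 ± 0.21) and Vcam1 (0.79 ± 0.12) rose, and 9 of 13 such genes did, 8 of them without KO replicate 1.

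Of 22 p53 targets and cell death genes 9 rose, 8 without KO replicate 1. Mlkl, which makes the pores of necroptosis, went from 0.251, 0.214 and 0.311 CPM to 1.34, 0.775, 1.16 and 0.963 CPM (2.04 ± 0.36). Gsdmd, the pore gene of pyroptosis (0.90 ± 0.18), the death receptor Tnfrsf10b (1.42 ± 0.25) and the p53 targets Pmaip1 (0.95 ± 0.14) and Cdkn1a (0.99 ± 0.16) rose. Ripk3, the kinase that acts on MLKL and named after its value was seen, rose by 2.29 ± 0.50, from 0.212, 0.0429 and 0.287 CPM to 1.56, 0.505, 0.711 and 0.739 CPM. Mdm2 (-0.04) and Zmat3 (-0.11), also p53 targets, were not called. Of 24 cell cycle genes 5 rose, 4 without KO replicate 1 and 2 with only the libraries free of Xist, among them the cyclin Ccnd1 (0.58 ± 0.09) and the replication factor Mcm3 (0.65 ± 0.15), and the mitotic kinase Cdk1 (1.55 ± 0.40) passed only with KO replicate 1.

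Hemoglobin and erythroid genes showed the strongest pull of KO replicate 1. Of 10 tested 8 rose, and 7 stood without it, while the median fell from 3.34 to 2.47. Hba-a1, an alpha chain, was at 150, 144 and 156 CPM in flox and at 5305, 1092, 1228 and 1109 CPM in KO. The other 3 KO libraries were thus close together and well above flox, and the log2 fold change went from 3.87 ± 0.51 to 2.93 without KO replicate 1 (edgeR adjusted p = 1.25e-07). In Hba-a2, Hbb-bs and Hbb-bt KO replicate 1 was likewise highest and the groups did not overlap, but these are close copies whose reads cannot be assigned with certainty. Alas2 encodes the heme enzyme of red cell precursors and also sits in reticulocytes. It went from 4.82, 6.24 and 7.19 CPM to 191, 35.7, 45.0 and 32.2 CPM. Its log2 fold change was 3.65 ± 0.57, and 2.64 without KO replicate 1. Whether red cells lay inside or outside vessels was not measured.

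Of 19 heme and iron genes 10 rose, but only 5 without KO replicate 1. Hmox1, which breaks down heme, was at 3.90, 4.59 and 3.30 CPM in flox and at 32.9, 7.05, 10.1 and 8.94 CPM in KO (1.91 ± 0.42, and 1.15 without KO replicate 1). The iron exporter Slc40a1 (0.87 ± 0.11), the ferritin light chain Ftl1 (0.50 ± 0.11, and 0.33 without KO replicate 1), the ferroxidase Cp (1.24 ± 0.20) and the ferrireductase Steap3 (0.77 ± 0.13) stood in both fits. Fth1, the ferritin heavy chain (0.07), and Trf, transferrin (0.30), were not called. Lcn2, an iron-binding protein of acute inflammation, rested on 1 library: it had 8, 6 and 6 reads in flox and 588, 8, 32 and 18 reads in KO, and its log2 fold change of 4.26 ± 1.27 dropped to 1.24 without KO replicate 1, which did not pass.

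Some genes of oxygen sensing and glycolysis rose and no respiratory chain gene passed. Of 25 genes of the HIF system and its targets 4 rose, with a median of 0.115, and all 4 stood without KO replicate 1. Epas1, the endothelial factor HIF-2 alpha, went from 143, 144 and 150 CPM to 221, 195, 201 and 184 CPM (0.46 ± 0.06), and Egln3, a prolyl hydroxylase induced by HIF, rose by 0.48 ± 0.12. Of 22 glycolysis genes 7 rose (median 0.066), 5 without KO replicate 1, beside 6.78% of all genes. Besides Slc2a1 the rises included the hexokinase Hk2 (0.74 ± 0.15), the lactate transporter Slc16a3 (0.82 ± 0.19, and 0.55 without KO replicate 1) and the pyruvate dehydrogenase kinase Pdk1 (0.23 ± 0.06). The abundant Aldoa (0.06) and Pkm (-0.01) were not called. None of 24 nuclear and none of 13 mitochondrial respiratory chain genes passed, with medians of -0.016 and -0.107. H19, an imprinted non-coding RNA that is high before birth, was at 0.135, 0.129 and 0.167 CPM in flox and at 4.17, 1.46, 2.37 and 1.66 CPM in KO (4.06 ± 0.43, and 3.67 without KO replicate 1). Igfbp7, a vessel-associated binding protein, rose by 1.25 ± 0.17.

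**Figure D3:**
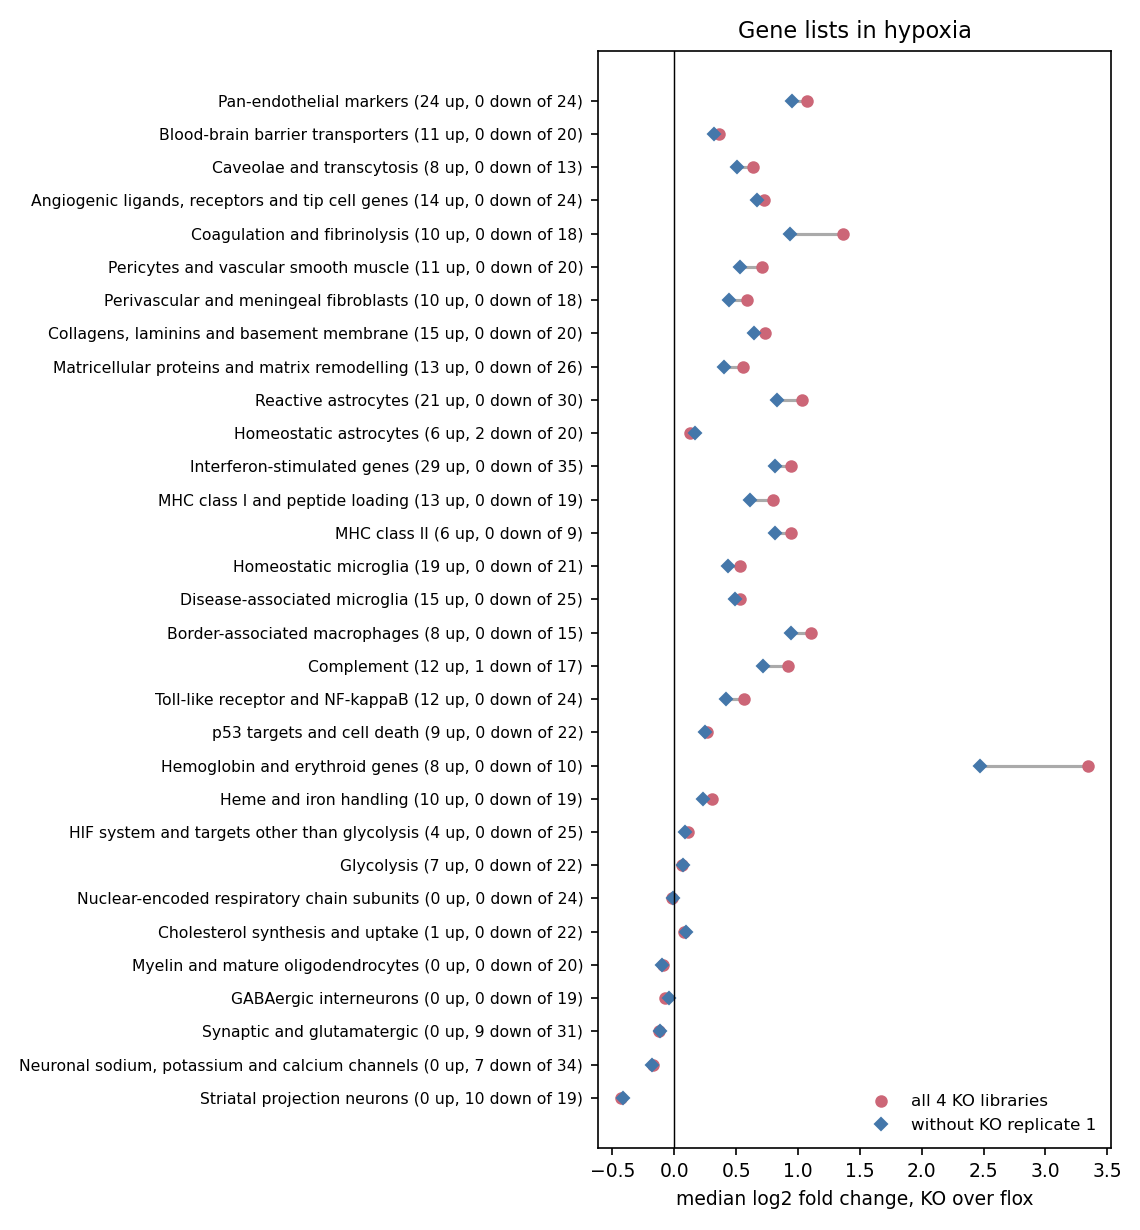
Median log2 fold change of KO over flox in hypoxia over the tested members of 31 gene lists, with all 4 KO libraries (circles) and without KO replicate 1 (diamonds); beside each name stand the members that passed in either direction. The hemoglobin and erythroid list moved most, from 3.34 to 2.47, and lists of neuronal genes lie to the left of 0.

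The lower genes were fewer and their changes smaller, and many of the named ones are neuronal. Of 19 striatal projection neuron genes 10 fell, 8 of them also without KO replicate 1, with medians of -0.428 and -0.412, and none rose. With only the libraries free of Xist 4 were called, the median was -0.273, and Pde10a was among those not called. Pde10a, a phosphodiesterase of these neurons, was at 152, 172 and 121 CPM in flox and at 93.6, 120, 95.3 and 78.0 CPM in KO. The highest KO value lay just under the lowest flox value (-0.62 ± 0.13, edgeR adjusted p = 0.00566). Scn4b, a sodium channel subunit, fell by 0.82 ± 0.18, Rasd2, a small GTPase of striatum, by 0.52 ± 0.09 and the cyclase Adcy5 by 0.37 ± 0.08. Foxp1 (-0.10) and Arpp21 (-0.17) were not called. The same libraries differed in genes of thalamic neurons: Prkcd was at 12.4, 15.3 and 39.3 CPM in flox and at 45.1, 25.5, 51.5 and 58.4 CPM in KO, and Tcf7l2 at 5.21, 5.72 and 10.2 against 12.2, 9.88, 17.9 and 13.9 CPM, neither of which was called. Flox replicate 3, the lowest flox library for Pde10a, was the highest for both. The part of the regions that each piece of tissue held in these falls was not tested.

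Some synaptic genes fell by small amounts. Of 31 tested 9 fell, 7 without KO replicate 1 and 5 with only the libraries free of Xist, with a median of -0.119. Camk2a, the kinase of the postsynaptic density, went from 3311, 3475 and 3397 CPM to 3119, 3059, 2858 and 3085 CPM (-0.16 ± 0.04). The scaffold genes Shank1 (-0.26 ± 0.05) and Dlg4 (-0.17 ± 0.04), the NMDA receptor subunit Grin1 (-0.21 ± 0.04) and Nlgn2, an adhesion molecule of inhibitory synapses (-0.20 ± 0.04), fell, while Snap25 (-0.11) and Slc17a7 (-0.08) did not pass. Of 34 ion channel genes 7 fell, but only 2 of these stood without KO replicate 1, Scn4b and the calcium channel gene Cacna1a (-0.26 ± 0.06). None of 19 GABAergic interneuron genes and none of 20 myelin genes passed. With only the libraries free of Xist 4 of the myelin genes were called lower. Without a composition factor 6 of the 31 synaptic genes passed, and their median was -0.09.

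Genes of immature neurons were among the larger falls. Of 18 progenitor and immature neuron genes 5 fell and 1 rose, of which 4 and 1 stood without KO replicate 1. With only the libraries free of Xist 3 were called lower, and Dcx and Sox11 were not among them. Igfbpl1, a marker of newborn neurons, was at 1.64, 1.59 and 1.41 CPM in flox and at 0.527, 0.360, 0.305 and 0.403 CPM in KO (-1.96 ± 0.27, and -2.13 without KO replicate 1). Eomes, a transcription factor of intermediate progenitors that olfactory bulb neurons also express, went from 0.424, 0.343 and 0.287 CPM to 0.0680, 0.0901, 0.0145 and 0 CPM (-2.95 ± 0.70). Dcx, a microtubule protein of migrating neurons, fell from 52.4, 52.3 and 54.4 CPM to 43.1, 43.0, 42.3 and 39.1 CPM (-0.34 ± 0.07), and the transcription factor Sox11 fell by 0.39 ± 0.10. All KO libraries lay below all flox libraries in each of these 4 genes, as in 9.37% of all genes. Of the 18 genes of the list 6 lay below in this way and 3 above. Nes, an intermediate filament of progenitors that endothelial cells and reactive astrocytes also express, rose by 1.41 ± 0.20. The more widely expressed Tubb3 (-0.03) and Stmn2 (0.01) were not called.

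**Figure D4:**
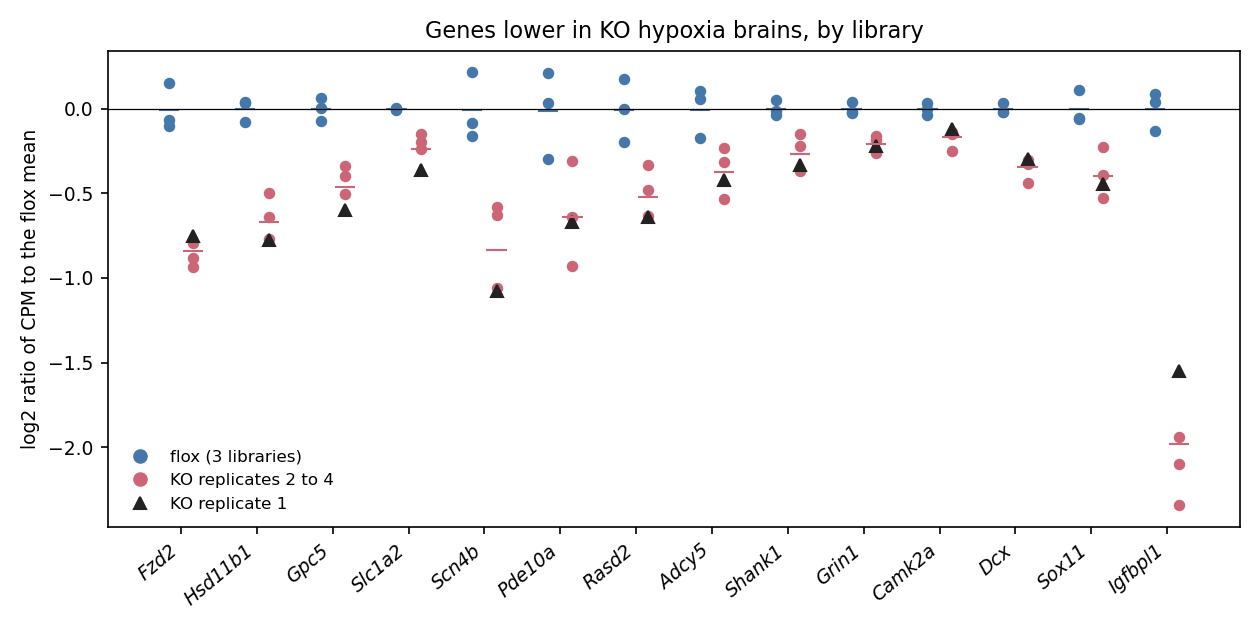
Log2 ratio of each library's CPM to the mean of the 3 flox libraries for 14 genes lower in KO brains in hypoxia; blue circles are flox, red circles KO replicates 2 to 4, triangles KO replicate 1 and short lines group means of the ratios. KO replicate 1 is the lowest KO library for Gpc5 and Slc1a2 and the highest for Fzd2 and Igfbpl1, and the flox libraries are most spread for Pde10a.

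Other falls also stood in both fits. Hsd11b1, which regenerates active glucocorticoid, went from 14.1, 13.1 and 14.2 CPM to 8.05, 8.07, 8.87 and 9.77 CPM (-0.67 ± 0.08). Col11a2, a minor fibrillar collagen chain, fell by 0.49 ± 0.08 and Col24a1 by 0.43 ± 0.11, against the direction of Col3a1 and Col1a1. Padi2, an arginine deiminase of oligodendrocytes, fell by 0.53 ± 0.13. Dsp, desmoplakin of dentate granule cells, fell by 0.60 ± 0.13, Lrrc10b by 0.70 ± 0.14 and Cyp4f15 by 0.51 ± 0.11. The potassium channel Kcnh4 fell by 0.43 ± 0.10 and the orphan receptor Gpr6 by 0.60 ± 0.14. Flox replicate 3, the lowest flox library for Pde10a, was the lowest for Lrrc10b too, at 22.1 CPM against 31.0 and 31.5 CPM. The same held for Gpr6, at 4.71 against 6.44 and 7.18 CPM, but not for Kcnh4 (23.4, 24.4 and 23.7 CPM). The part of tissue regions in these falls was not tested. Gnas, the stimulatory G protein subunit, fell by 0.49 ± 0.11, but it overlaps antisense and imprinted transcripts and the strand setting of the counting is not given in the sources used here. Gh, the pituitary growth hormone, had 38, 37 and 46 reads in flox and 2, 2, 0 and 0 in KO libraries. Pituitary tissue is a separate organ, and the part of its presence at dissection was not tested.

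Among the largest rises that stood in both fits, hemoglobin aside, were Capg, an actin-capping protein of macrophages and endothelium (2.63 ± 0.21, from 1.64, 1.56 and 1.89 CPM to 15.8, 8.18, 9.29 and 8.78 CPM), Emp1, Col3a1 and Ly6a, an endothelial surface antigen (2.32 ± 0.23). Pglyrp1, a peptidoglycan recognition protein that barrier endothelium expresses, rose by 2.14 ± 0.18 and Srgn, the proteoglycan serglycin, by 1.90 ± 0.16. Ube2l6, the ISG15-conjugating enzyme, also abundant in maturing red cells, was at 4.32, 3.82 and 4.49 CPM in flox and at 55.8, 14.1, 17.2 and 12.0 CPM in KO, so its 2.56 ± 0.44 became 1.78 without KO replicate 1.

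Some genes passed only with KO replicate 1. Among rises at this level of expression the largest were Apold1, an early response gene of endothelium (1.26 ± 0.35, and 0.84 without), Prg4 (1.08 and 0.76), Gimap6 (0.98 and 0.84), H2-T24 (0.86 and 0.81) and Bin2 (0.83 and 0.52). Apold1 was at 10.7, 7.42 and 8.98 CPM in flox and at 38.0, 11.3, 16.9 and 20.5 CPM in KO. Among falls they were Rgs9 of striatum (-0.65 and -0.61), the serotonin receptors Htr4 (-0.53 in both) and Htr1b (-0.40 and -0.34), the glutamate transporter Slc17a8 (-0.43 and -0.44) and Id4 (-0.40 and -0.39). These falls kept their size and lost the call with 1 library fewer. Activity-regulated genes showed the reverse case, a low value in KO replicate 1: Arc was at 602, 537 and 561 CPM in flox and at 140, 443, 403 and 347 CPM in KO, and Egr1 at 618, 588 and 588 against 237, 532, 539 and 412 CPM. Neither was called (edgeR adjusted p = 0.282 and 0.37), although KO lay below without overlap, as in 9.37% of all genes. Of 26 activity-regulated genes 15 lay below in this way. Only 1 was called lower, and 0 without KO replicate 1. With only the libraries free of Xist, which keep KO replicates 1 and 2, 6 were called lower. The summed level of 26 such genes was 3605 to 3827 CPM in flox, 2792 to 3196 CPM in KO replicates 2 to 4 and 1856 CPM in KO replicate 1.

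The same genotypes at 21% oxygen gave 524 called genes, and 414 of the 1526 higher and 29 of the 513 lower genes in hypoxia were called in the same direction there. A gene called in hypoxia alone is not shown to differ between the conditions. When that difference was tested for each of 22507 genes, edgeR called none, although 1635 had an unadjusted p under 0.05. DESeq2 called 5, which were Syt6, Sash3, Tnfrsf23, Csf2rb2 and Gm4631, and limma on log2(RPKM + 1) called 2, Gh and Mir8116. For pan-endothelial markers the median log2 fold change was 1.07 in hypoxia and 1.03 in normoxia, and for striatal genes it was -0.428 and -0.058.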

How the data were processed

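Brain RNA libraries of a stranded mRNA kit were compared by genotype in hypoxia. The authors deposited a table of read counts per gene and RPKM values (reads scaled to gene length and library size) for 13 libraries. The submitters' processing notes name HISAT2, edgeR and GRCm39, without versions or roles. The sources used here do not give the counting settings. Reference gene name tables paired 52083 of 55416 identifiers with symbols, and 3333 had none.

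The deposited counts went into edgeR 4.0.16 (R 4.3.3), with genes kept by filterByExpr, TMM factors, 1 mean per group over all 13 libraries, the quasi-likelihood test and Benjamini-Hochberg adjustment, with calls at an adjusted p under 0.05. CPM values are TMM-scaled, ± after a log2 fold change is its SE, and hemoglobin share was compared by an exact permutation test. DESeq2 1.42.0 and limma 3.58.1 on log2(RPKM + 1) or log2(RPKM + 0.1) were alternatives, with other scalings, filters and left-out libraries. The code was tested on simulated data.

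The genes compared and the 59 gene lists (1247 entries, 1210 tested) were chosen with earlier results of these data known. Named genes are the 15 largest rises and 15 largest falls called with and without KO replicate 1 (mean log2 CPM of at least 2, no overlap, no predicted or sex-linked genes), the 5 largest each way called only with it, up to 5 called and 2 not called genes per list, and 12 genes of the disease. Other list members and Bst1, Gm6614, Lcn2, Prkcd, Tcf7l2, Egr1 and Arc were named after their values were seen. No animal identifiers are given, so p-values measure only the spread between libraries, which may be technical.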

Additional observations from a re-analysis of the deposited data

Results flagged for a closer look

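In 30 of 202 values tested, 1 of the 4 KO libraries lay so far from the rest that its gap, divided by the group's range, was above Dixon's critical value of 0.829. Chance flags about 1 in 20 groups, and over all tested genes 5.85% were flagged. In 25 of the 30 the library was KO replicate 1, against 472 of the 1316 genes flagged among all tested. The named values are no fair sample of libraries, since some were chosen for what that library does to them. The hemoglobin share and the 4 globin genes restate why KO replicate 1 was set apart, and without these 5 it was the library in 20 of 25. The values in which it stood apart were the hemoglobin share of counts (0.947) and the CPM of Ccm2l (0.925), Bst1 (0.875), Hba-a1 (0.968), Lcn2 (0.968), Slc2a1 (0.911), Flt4 (0.881), Mgp (0.875), Emp1 (0.837), Osmr (0.838), Lyz2 (0.883), H2-Ab1 (0.841), Hba-a2 (0.924), Hbb-bs (0.905), Hbb-bt (0.957), Alas2 (0.919), Hmox1 (0.88), Ftl1 (0.945), Cp (0.882), Capg (0.854), Ly6a (0.904), Ube2l6 (0.881), Prg4 (0.855), Slc17a8 (0.895) and Tnfrsf23 (0.87). KO replicate 1 was the highest KO library in each of these. For Slc17a8 the gap was small, from 3.66 CPM to 3.71 CPM, since the other 3 KO values lie close together. The remaining values were Pdcd10 in KO replicate 3 (0.881), Ccm2 in KO replicate 4 (0.893), Apoe in KO replicate 4 (0.838), Steap3 in KO replicate 2 (0.856) and Stmn2 in KO replicate 4 (0.888). The cause was not tested.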

How the results depend on the processing

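Of 201 genes named in the report 163 were called, and none of these changed direction under the alternatives run. RLE scaling changed no call among them. Without flox replicates 1, 2 and 3, 22, 27 and 15 of them lost the call, and without KO replicates 1, 2, 3 and 4, 13, 3, 8 and 7 did. The 2039 calls became 287 (284 higher, 3 lower) when a fold above 1.5 was tested. The 513 lower calls became 243 without a composition factor, 183 with limma on log2(RPKM + 1), 192 on log2(RPKM + 0.1), 236 with only the 7 hypoxia libraries and 237 with only libraries that hold Y-linked transcripts. Leaving out 1 library gave 1151 to 2490 calls, 998 to 1782 higher and 153 to 708 lower. Without KO replicate 1, leaving out a further library gave 892 to 1790 calls. In deviations from the group means, same-numbered flox and KO libraries correlated at -0.034, 0.081 and 0.041. So few pairs cannot decide whether the numbers pair the libraries. With the replicate block the calls were 1571 (263 lower), 860 without KO replicate 1, and 1 for the difference between oxygen levels. That difference gave 5 calls by DESeq2, 2 by limma and 55 without a filter. Median log2 fold changes near 0 reversed: respiratory chain genes from -0.016 to 0.015 without a composition factor and 0.003 with only the 7 hypoxia libraries, the CCM complex from -0.006 to 0.024, 0.013 and, with only Y-linked libraries, 0.036, and other brain regions from 0.023 to -0.066 with only those. The cause was not tested. Genes under 0.0713 CPM are at the limit of 3 counts.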
